A study of Mus musculus with 6 samples.

Results

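The Fc receptors bind the constant part of antibodies, and 10 mouse genes of this group were examined: the IgG receptor genes Fcgr1, Fcgr2b, Fcgr3 and Fcgr4, the IgE receptor genes Fcer1a and Fcer2a, the signalling chain gene Fcer1g, the neonatal receptor gene Fcgrt, and the receptor-like genes Fcrla and Fcrlb. The genes were picked by name. Each of the 10 had exactly 1 row with a single symbol on the array, out of 22180 genes measured. The cells were an acute myeloid leukaemia line, PU.1low URE-/-, grown from 1 leukaemic mouse lacking the upstream regulatory element (URE) of Spi1, the gene of the transcription factor PU.1. All 6 samples carry that deletion and were kept in the same medium with serum and supernatants of WEHI and BHK cells. In 3 samples DB2313, which the labels give as an inhibitor of PU.1, was present at 330 nM for 24 h, and 3 samples received an equal volume of water for 24 h (vehicle). The labels call the 3 samples of each group biological replicates of 1 line without saying how the cultures were separated, so p-values cover no more than the scatter of these samples, which may be technical.

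Receptors for IgG come in activating and inhibitory forms. The activating receptors encoded by Fcgr1, Fcgr3 and Fcgr4, and the high-affinity IgE receptor whose binding chain is encoded by Fcer1a, have little signalling tail of their own and use the common gamma chain, the product of Fcer1g. Its tyrosine motif (an ITAM) is phosphorylated by Src-family kinases and then binds the kinase Syk. Fcgr2b encodes the inhibitory IgG receptor, whose tail carries an inhibitory motif and recruits the lipid phosphatase encoded by Inpp5d. In the myeloid lineage PU.1 is known as a regulator of Fc receptor genes, with the promoter of the human counterpart of Fcgr1 among its described targets.

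Array medians over all rows lay between 4.77 and 4.82 on the log2 scale. The label was checked against marker genes: all 10 markers of myeloid progenitors lay above the median signal of all genes (5.17), with Elane at 13.05 ± 0.02, Prtn3 at 12.46 ± 0.03 and Ctsg at 12.52 ± 0.03 in vehicle (log2, SD, n = 3). Of 11 measured B cell markers 1 lay above that median, and of 12 mast cell and basophil markers 2 did. Macrophage markers were mixed, with 6 of 12 above it, as were erythroid markers (3 of 6) and stromal and endothelial markers (4 of 10). Above it too were 2 of 10 neutrophil, 1 of 8 dendritic cell, 1 of 10 T and NK cell and 1 of 7 megakaryocyte markers. Scanner files were not used here, so a probe set's own background is unknown, and signals of different genes are not compared with one another as amounts of RNA. A gene's place among all genes is given only to show how near it lay to the lower end of the scale.

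After 24 h of DB2313 no Fc receptor gene passed the test over all genes. In limma, 0 of the 10 had an adjusted p under 0.05, where 1.81% of all genes did, and 2 of the 10, Fcgrt and Fcgr3, had an unadjusted p under 0.05, where 12.7% of all genes did. Those same 2 were the ones whose treated and vehicle values did not overlap, both lower with DB2313. Among all genes 19.3% did not overlap, and 9.55% did not overlap with lower values after treatment. In the other 8 genes the groups overlapped, and 7 of the 10 changed by less than 0.1 on the log2 scale. The median log2 fold change was -0.0085 for the 10 genes and -0.00245 for all genes, and the median absolute value was 0.056 against 0.0788. Spi1, the gene of the inhibited factor, was lower by limma, going from 6.87 ± 0.08 to 6.50 ± 0.01 (log2, SD, n = 3; log2 fold change -0.37, adjusted p = 0.0342), a call that dropping any single array removed (adjusted p = 0.0648 to 0.134). In these bulk samples fewer cells with a transcript and less transcript per cell cannot be told apart.

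**Figure D1:**
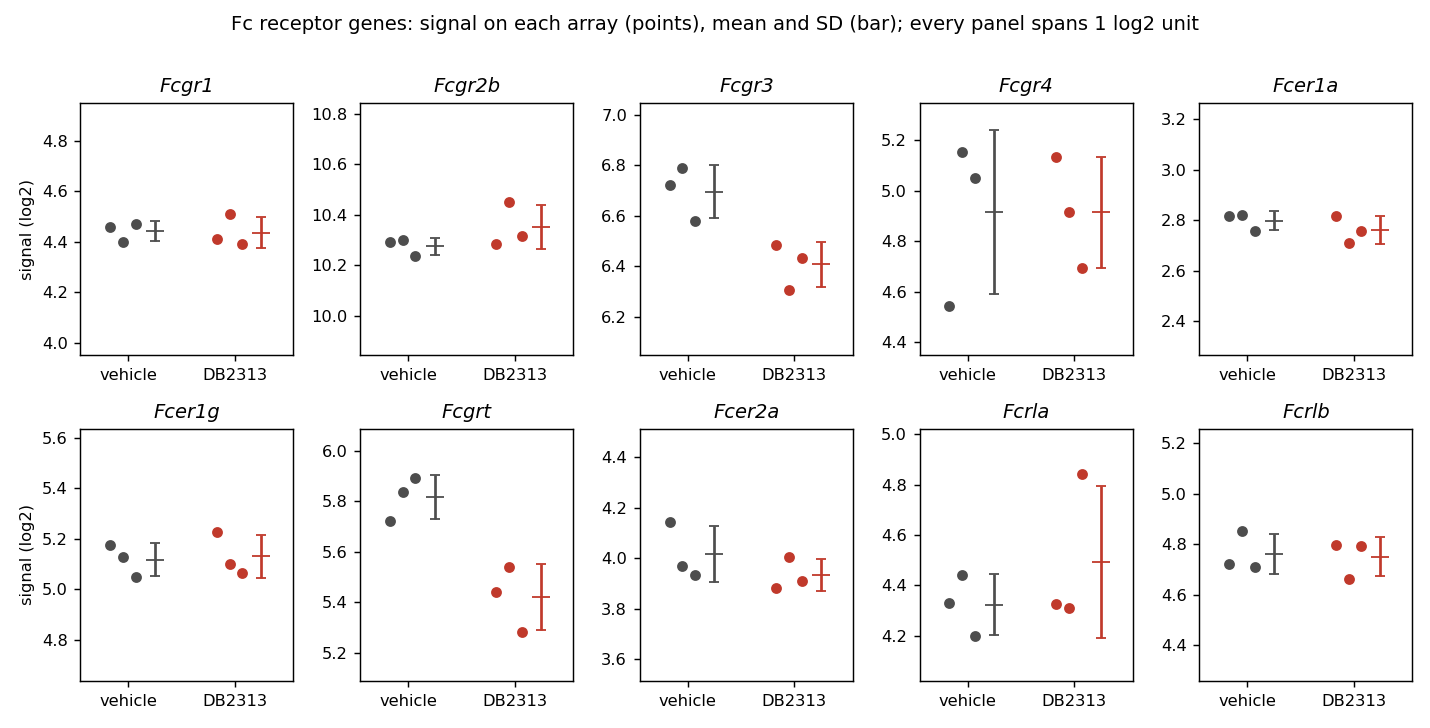
Signal (log2) of the 10 Fc receptor genes on each array, with points for the 3 vehicle and 3 DB2313 arrays and bars for the mean and SD; every panel spans 1 log2 unit around its own values. Fcgr3 and Fcgrt are the panels in which the 2 groups do not overlap, and Fcgr4 and Fcrla show the widest spread within a group.

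Because the compound is described as acting on PU.1, the promoters were read for the letters that PU.1 prefers. All ETS factors recognise the core GGAA, and PU.1 is known for a preference for GAGGAA, which reads TTCCTC on the other strand. The 150 bases before the start are printed for the 2 genes with non-overlapping groups (Fcgr3 and Fcgrt), for Fcgr2b with its high signal, and for 2 further activating receptors (Fcgr1 and Fcgr4). Sequences are from RefSeq, build GRCm38.p6, 5′ to 3′ on the gene's strand, with GAGGAA or TTCCTC in capitals. The windows are chr1:171059395-171059544 (-) for Fcgr3, of which the table lists 2 close starts, chr7:45103823-45103972 (-) for Fcgrt, chr1:170976072-170976221 (-) for Fcgr2b, chr3:96293970-96294119 (-) for Fcgr1 and chr1:171018776-171018925 (+) for Fcgr4.
Fcgr3: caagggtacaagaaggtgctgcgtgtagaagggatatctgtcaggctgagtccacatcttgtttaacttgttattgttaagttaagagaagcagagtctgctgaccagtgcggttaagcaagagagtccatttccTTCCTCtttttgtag
Fcgrt: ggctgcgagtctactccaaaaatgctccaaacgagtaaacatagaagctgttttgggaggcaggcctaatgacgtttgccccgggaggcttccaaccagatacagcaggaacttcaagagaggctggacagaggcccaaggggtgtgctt
Fcgr2b: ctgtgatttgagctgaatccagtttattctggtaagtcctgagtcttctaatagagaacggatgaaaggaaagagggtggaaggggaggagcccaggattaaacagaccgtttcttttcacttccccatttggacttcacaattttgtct
Fcgr1: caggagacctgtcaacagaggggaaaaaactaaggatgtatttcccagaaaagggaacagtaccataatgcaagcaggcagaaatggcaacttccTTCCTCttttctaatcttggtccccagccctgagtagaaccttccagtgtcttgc
Fcgr4: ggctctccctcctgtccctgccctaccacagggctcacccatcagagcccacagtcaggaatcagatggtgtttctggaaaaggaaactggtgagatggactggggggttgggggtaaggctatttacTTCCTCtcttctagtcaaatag

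GAGGAA on either strand was present in the 250 bases before a start in 6 of the 10 genes, namely Fcgr1, Fcgr3, Fcgr4, Fcer1a, Fcrla and Fcrlb, and in 25.4% of the 16990 measured genes with a RefSeq promoter, read over the same length; over all 32851 promoters the share was 23.3%. Within that window Fcgr2b, Fcer1g, Fcgrt and Fcer2a held none. The shorter core GGAA, which lies within every GAGGAA, occurred in all 10 and in 94.0% of these measured genes. In Fcgr1 the letters stood at -55 to -50 from the start, in Fcgr4 at -22 to -17, and in Fcgr3 at -15 to -10 from the second of its 2 listed starts. Fcgr1 and Fcgr3 shared a run of 14 bases around the site, ttccTTCCTCtttt, which 3 of the 32851 promoters held. Fcgr1 and Fcrla shared 15 bases, TTCCTCttttctaat, also found in 3 promoters. In each case the pair itself is among the 3, beside Entpd1 for the first run and Krt14 for the second. Fcgr1 and Fcgr4 shared 8 bases, cTTCCTCt, as did Fcgr3 and Fcgr4, and 1204 promoters (3.67%) held that run. Each run was the longest common to a chosen pair, and runs of other gene pairs were not counted for comparison. Its rarity is therefore no result about these genes. Such matches describe letters only. Of the 6 genes with GAGGAA, Fcgr3 was the one whose groups did not overlap, and of the 4 without it, Fcgrt was.

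Fcgr2b gave the highest place on the scale of any of the 10, in the 98.3rd percentile of all genes. Its values were 10.29, 10.30 and 10.24 in the vehicle samples and 10.28, 10.45 and 10.32 with DB2313 (log2). One treated sample, DB2313 replicate 2, lay above the rest, and the groups overlapped. The log2 fold change was 0.08 (SE 0.067, limma adjusted p = 0.719), with a 95% interval from -0.08 to 0.23. That interval runs from 0.945 to 1.17 times the vehicle level.

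Fcgr3, which encodes the low-affinity activating IgG receptor CD16, read 6.72, 6.79 and 6.58 in vehicle and 6.48, 6.31 and 6.43 with DB2313 (log2). All 3 treated samples lay below all 3 vehicle samples. Its log2 fold change was -0.29 (SE 0.080, 95% interval -0.47 to -0.10), equal to 1.22-fold lower, with an unadjusted p of 0.00743 and an adjusted p of 0.168 in limma. It did not pass under any of the 15 other settings tried (adjusted p from 0.056 to 0.382). Fcgr2b and Fcgr3 lie close together on chromosome 1 and encode similar extracellular parts. Whether their probes match both transcripts was not examined.

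The inhibitory and the activating receptor gene were also set against each other within each array, a comparison chosen with their values known. The log2 signal of Fcgr3 minus that of Fcgr2b was -3.57, -3.51 and -3.66 in vehicle and -3.80, -4.14 and -3.88 with DB2313. Only the change of this difference is read, not its size, since it mixes the response of 2 probe sets. It was lower in all 3 treated samples, by -0.36 on average (vehicle -3.58 ± 0.07, DB2313 -3.94 ± 0.18, SD, n = 3). A 2-sided exact permutation test gave p = 0.1, the smallest that 3 against 3 samples allow. DB2313 replicate 2 had both the highest Fcgr2b and the lowest Fcgr3 value.

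The other activating IgG receptor genes had signals below the median of all genes. Fcgr1, the high-affinity receptor CD64, read 4.46, 4.40 and 4.47 in vehicle and 4.41, 4.51 and 4.39 with DB2313 (log2). These values were among the tightest of the group, and the log2 fold change was -0.0061 (95% interval -0.15 to 0.14, limma adjusted p = 0.981). Fcgr4, a receptor of monocytes and neutrophils, read 4.54, 5.15 and 5.05 in vehicle against 5.13, 4.91 and 4.69 with DB2313. Its pooled SD of 0.278 was larger than that of 97.8% of all genes, and vehicle replicate 1 lay below all other samples. The log2 fold change of -0.0021 therefore came with a wide interval, from -0.41 to 0.40 (limma adjusted p = 0.998), and the sign changed between settings for both genes. Among the monocyte and macrophage markers in vehicle, Csf1r was at 5.02 ± 0.13 and Adgre1, an adhesion receptor of macrophages, at 3.38 ± 0.15, while Cd68, a lysosomal protein, was at 7.46 ± 0.13 (log2, SD, n = 3). Cd68 was 6.99 ± 0.13 with DB2313 without overlap between groups and did not pass (limma adjusted p = 0.0554). Ly6c2, a surface antigen of monocytes, had a mean of 11.27 over all arrays and did not pass.

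Fcer1g, the chain shared by the activating receptors, did not differ between groups beyond its spread. It read 5.18, 5.13 and 5.05 in vehicle and 5.23, 5.10 and 5.07 with DB2313 (log2), and the groups overlapped. Its log2 fold change was 0.01 (SE 0.071, limma adjusted p = 0.963). The 95% interval ran from -0.15 to 0.18, that is from 0.900 to 1.13 times the vehicle level. The signal lay at the 49.2nd percentile of all genes.

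Fcer1a was the dimmest of the 10 genes, at the 6.2nd percentile. It read 2.82, 2.82 and 2.76 in vehicle and 2.82, 2.71 and 2.76 with DB2313 (log2), with a log2 fold change of -0.04 (95% interval -0.18 to 0.11, limma adjusted p = 0.867). At this end of the scale a change in transcript may not be seen. Ms4a2, which encodes the beta chain of the same IgE receptor, read 3.57 ± 0.03 in vehicle and 3.61 ± 0.07 after the compound (log2, SD, n = 3). The mast cell protease gene Cpa3 was at 3.12 ± 0.09 in vehicle, while 2 markers were brighter. Kit, the stem cell factor receptor of both mast cells and progenitors, was at 8.84 ± 0.11 in vehicle. Mcpt8, a protease gene of basophils, read 7.718 ± 0.031 in vehicle and 7.999 ± 0.044 with DB2313. The groups of Mcpt8 did not overlap, and it did not pass (limma adjusted p = 0.0745). None of the 12 mast cell and basophil markers passed the test.

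Fcgrt had the largest difference of the 10 genes. It encodes the heavy chain of the neonatal Fc receptor, FcRn, which is built like an MHC class I molecule and returns IgG and albumin from endosomes to the cell surface. The values were 5.72, 5.84 and 5.89 in vehicle and 5.44, 5.54 and 5.28 with DB2313 (log2). Every treated sample lay below every vehicle sample. The log2 fold change was -0.40 (SE 0.086, 95% interval -0.60 to -0.20), equal to 1.32-fold lower, with an unadjusted p of 0.00192. After adjustment over all genes it did not pass (limma adjusted p = 0.0791). It passed under 3 of 15 other settings: when genes dimmer than the median were removed (adjusted p = 0.0236), with a trended and robust prior (0.0427), and after adding 32 to each linear signal (0.0428, log2 fold change -0.24). With 1 array left out the adjusted p lay between 0.102 and 0.220. The partner of FcRn, beta-2 microglobulin, is encoded by B2m, named outside the rule for its role. The B2m signal was 12.39 ± 0.04 in vehicle and 12.47 ± 0.01 after the compound (log2, SD, n = 3). Every treated B2m value lay above every vehicle value, and this log2 fold change of 0.08 did not pass (limma adjusted p = 0.634).

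**Figure D2:**
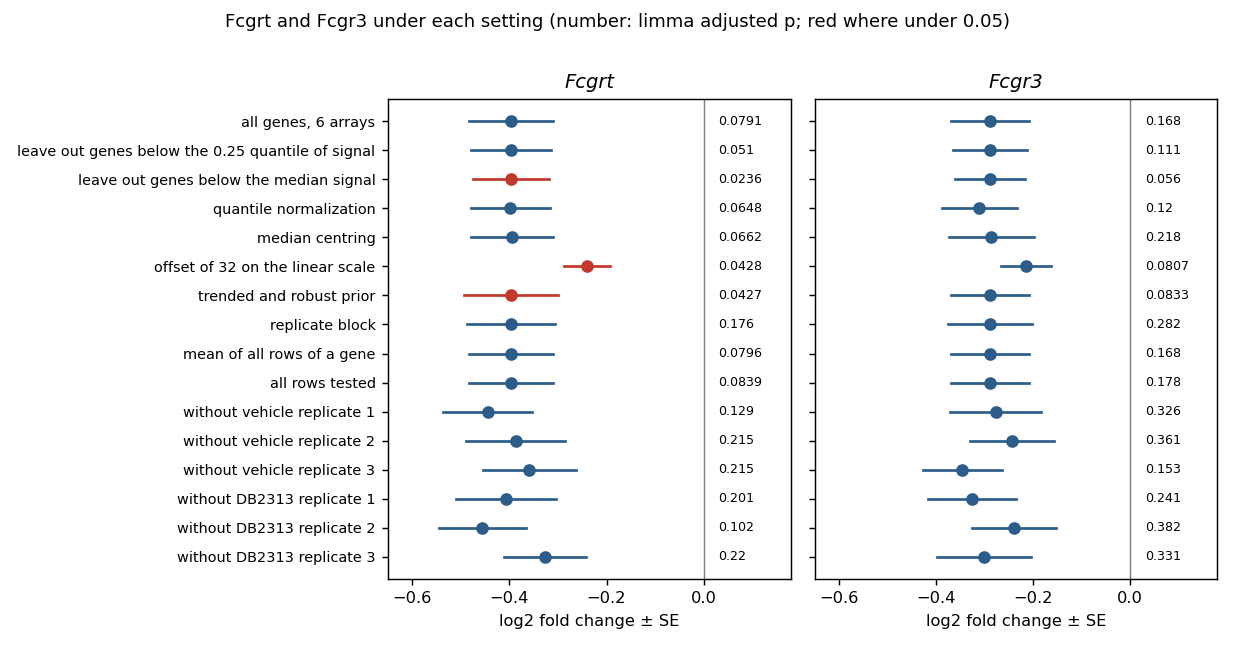
Log2 fold change with its SE for Fcgrt (left) and Fcgr3 (right) with all genes and 6 arrays and under the 15 other settings, with the limma adjusted p at the right of each panel. Every estimate lies below 0; Fcgrt has an adjusted p under 0.05 in 3 of the other settings and Fcgr3 in none.

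Marker lists are given beside the lower values of Fcgr3 and Fcgrt. The summed linear signal of 12 macrophage and monocyte markers was 2978 to 3253 in vehicle and 2833 to 3005 with DB2313, so the ranges overlapped, and 0 of the 12 passed, Cd68 being lower as given above. For 10 neutrophil markers the sums were 1265 to 1475 and 879 to 1042, with S100a8, a calprotectin subunit gene, the single one past the threshold (lower). For 10 stromal and endothelial markers, which include genes of cells known for high FcRn, the sums were 717 to 784 and 846 to 910, with Cdh5, an endothelial cadherin gene, higher. The sums of 6 erythroid markers were 777 to 843 in vehicle and 531 to 563 with DB2313, with Tfrc, the transferrin receptor gene, lower. For 12 mast cell and basophil markers they were 767 to 834 and 846 to 944, and for 8 dendritic cell markers 188 to 198 and 165 to 186, with 0 past the threshold in either list. The sums of 10 T and NK cell markers were 185 to 214 and 179 to 190, and of 7 megakaryocyte markers 199 to 222 and 192 to 199, again with 0 past it. Of the 10 myeloid progenitor markers, whose sums were 23123 to 23604 and 24020 to 24608, 1 was higher and 2 lower. The 2 lower ones were Spi1, already given above, and Cd33, a sialic acid-binding receptor. Cd33 was 3.61-fold lower (vehicle 7.85 ± 0.22, log2, SD, n = 3, limma adjusted p = 0.00287). Linear sums lean on the brightest markers, so they do not show how most genes of a list moved. Mean linear signals in vehicle and with DB2313 were 2580 and 2350 for Ly6c2, 1160 and 755 for S100a8, and 642 and 391 for Tfrc. The part of these lists in the values of Fcgr3 and Fcgrt was not tested.

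The remaining 3 genes, known from B lymphoid cells, completed the group and lay below the median signal. Fcer2a, the low-affinity IgE receptor CD23, read 4.14, 3.97 and 3.93 in vehicle and 3.88, 4.01 and 3.91 with DB2313 (log2), with a log2 fold change of -0.08 (95% interval -0.26 to 0.10, limma adjusted p = 0.731). Fcrlb, an intracellular receptor-like protein, read 4.72, 4.85 and 4.71 against 4.80, 4.66 and 4.79, with a log2 fold change of -0.01 (interval -0.18 to 0.16, adjusted p = 0.970). In both genes the groups overlapped. Fcrla, a related intracellular protein, read 4.33, 4.44 and 4.20 in vehicle and 4.33, 4.31 and 4.84 with DB2313. Its log2 fold change of 0.17 (interval -0.17 to 0.51, limma adjusted p = 0.711) rested on DB2313 replicate 3, without which it was -0.0063. The B cell markers Pax5 (4.16 ± 0.05), Ms4a1 (3.26 ± 0.11) and Cd79a (4.42 ± 0.10) were also below the median signal in vehicle (log2, SD, n = 3). Over 11 B cell markers the summed linear signal was 278 to 288 in vehicle and 320 to 338 with DB2313, with Igll1, part of the surrogate light chain, the single one past the threshold (higher). Igll1 alone had a mean linear signal of 106 in vehicle and 152 with DB2313, so the sum does not show how the other markers moved.

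**Figure D3:**
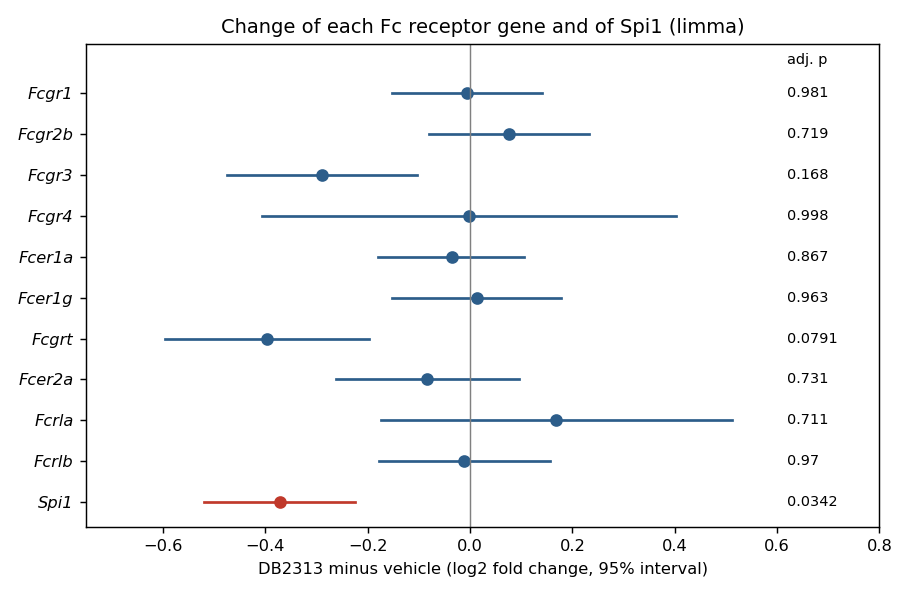
Log2 fold change of each Fc receptor gene and of Spi1, DB2313 minus vehicle, with 95% intervals and limma adjusted p at the right (red where under 0.05). The intervals of Fcgr3 and Fcgrt exclude 0 before adjustment, and no Fc receptor gene has an adjusted p under 0.05.

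Of the 10 genes, 7 lie on mouse chromosome 1. In the RefSeq order they run Fcrlb, Fcrla, Fcgr2b, Fcgr4, Fcgr3, Fcer1g and Fcer1a, while Fcgr1 is on chromosome 3, Fcgrt on chromosome 7 and Fcer2a on chromosome 8. On one side of Fcgr3, which had a log2 fold change of -0.29, Fcgr2b and Fcgr4 had 0.08 and -0.0021, and on its other side Fcer1g had 0.01. The interval of Fcgr4 (-0.41 to 0.40) includes the value of Fcgr3. Differences between these genes other than Fcgr3 minus Fcgr2b were not tested.

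Genes around the receptors were read from 7 lists named by role, which hold 155 genes, 142 of them measured. Of the 142, 1 rose and 5 fell (4.23%, where 1.81% of all genes passed), and the median log2 fold change was -0.0103. None of 10 other Fc-binding or Fc receptor-like genes and partners passed, and 0 of them had an unadjusted p under 0.05. The smallest p-values there were those of Trim21, a cytosolic antibody receptor (log2 fold change 0.23, limma adjusted p = 0.581), and Pigr, the receptor that carries polymeric IgA across epithelia (-0.17, adjusted p = 0.611). None of 7 other ITAM-bearing or related chains passed, again with 0 at an unadjusted p under 0.05. Hcst, the adaptor DAP10, had 0.07 and Cd3d had -0.06. Tyrobp, the adaptor DAP12 and closest in role to Fcer1g (named outside the rule), read 5.01 ± 0.18 in vehicle and 5.02 ± 0.04 after the compound (log2, SD, n = 3; limma adjusted p = 0.984).

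The receptors that signal through Fcer1g or Tyrobp included 2 genes that passed. Of 26 measured, 2 fell and none rose (7.69%, where 1.81% of all genes passed), with a median log2 fold change of -0.05. An unadjusted limma p under 0.05 was found for 5 of the 26, where 12.7% of all genes had one. Clec5a, a C-type lectin receptor that pairs with DAP12, was 3.07-fold lower, from 10.47 ± 0.06 to 8.85 ± 0.15 (log2, SD, n = 3; limma adjusted p = 0.000449). Cd200r4, an activating relative of the CD200 receptor, was 1.57-fold lower, from 4.71 ± 0.17 to 4.06 ± 0.10 (limma adjusted p = 0.0198). Dropping single arrays removed the call for Cd200r4 in 4 of 6 cases (adjusted p up to 0.0942), while Clec5a passed in all 6. The values of both chains, Fcer1g and Tyrobp, overlapped between groups.

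Genes downstream of the receptors were read in the same way, beside the 1.81% of all genes that passed. Of 11 measured tyrosine kinases none passed, with 2 at an unadjusted p under 0.05, Tec (log2 fold change 0.39, limma adjusted p = 0.128) and Zap70 (-0.22, adjusted p = 0.236). Tec passed when genes dimmer than the median were removed (0.0441) and with the trended and robust prior (0.0334). Syk, named outside the rule, went from 5.16 ± 0.04 to 5.24 ± 0.03 (log2, SD, n = 3) and did not pass (adjusted p = 0.67). Treated and vehicle values of Tec, Zap70 and Syk did not overlap, as was so for 19.3% of all genes. Of 35 adaptors, lipid enzymes and effectors, Prkcd, a protein kinase C isoform, fell (-0.41, limma adjusted p = 0.0386) and none rose past the threshold. The highest value of that list was that of Vav3, named outside the rule, at 0.38. Its groups did not overlap, and it did not pass (limma adjusted p = 0.0536). In all, 16 of the 35 lay below 0. Of 32 actin and phagocytic cup genes, Elmo1, part of an activator of the GTPase Rac, rose (0.34, limma adjusted p = 0.0455) and none fell. Gsn, the actin-severing protein gelsolin, had a larger difference of 0.66 but did not pass (adjusted p = 0.0627; named after its values were seen). Neither Prkcd nor Elmo1 passed once any single array was dropped, with adjusted p of 0.099 to 0.133 for Prkcd and 0.0915 to 0.172 for Elmo1.

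Inhibitors of the pathway had a median log2 fold change of -0.0885, with 14 of 21 below 0, where 50.9% of all genes were below 0. In limma 2 fell and none rose (9.52%, where 1.81% of all genes passed). They were Ubash3a, a phosphatase-related suppressor known from T cells (log2 fold change -0.54, adjusted p = 0.0155), and Dok3, an adaptor that dampens Syk and Btk signals (-0.46, adjusted p = 0.0226). Dok3 went from 8.79 ± 0.01 to 8.32 ± 0.11 and Ubash3a from 6.89 ± 0.05 to 6.35 ± 0.11 (log2, SD, n = 3). Each kept its call with DB2313 replicate 3 left out and lost it with any other array left out (adjusted p up to 0.0713 for Ubash3a and 0.0982 for Dok3). The phosphatases that the inhibitory receptors recruit were named outside the rule: Inpp5d read 9.16 ± 0.03 and 9.18 ± 0.06, and Ptpn6, which encodes SHP-1, 9.69 ± 0.04 and 9.83 ± 0.04 in vehicle and DB2313 (log2, SD, n = 3), and neither passed. The groups of Inpp5d overlapped, while every treated Ptpn6 value lay above every vehicle value.

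**Figure D4:**
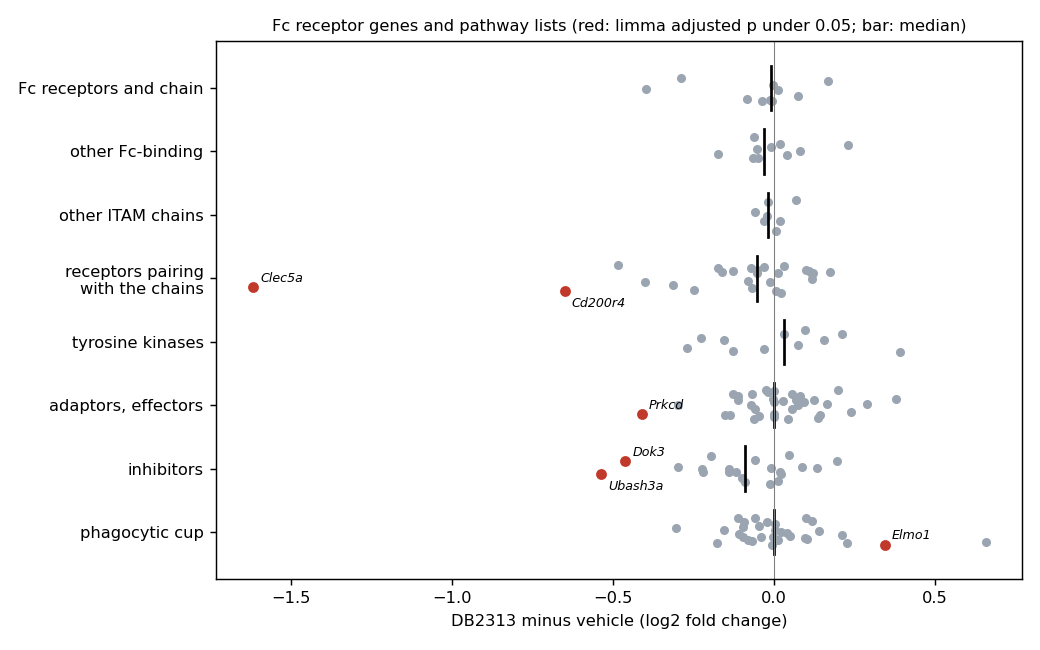
Log2 fold change, DB2313 minus vehicle, of each measured gene in the Fc receptor group and in 7 lists of related genes, with black bars at the list medians and red points where the limma adjusted p is under 0.05. The medians lie between -0.0885 and 0.0332, and 6 genes are red, none of them an Fc receptor gene.

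Genes whose signal moved most like 2 of the receptors over the 6 arrays were sought among genes above the median signal. For Fcgrt these were Tmem175 (Pearson's r = 0.990), Dera (0.983) and Flot2 (0.982), with log2 fold changes of -0.20, -0.18 and -0.24, of which none passed. For Fcer1g they were Tpd52l2 (0.991), Rmnd1 (0.980) and Cul4a (0.979), with log2 fold changes near 0. These are the highest of 11089 coefficients for Fcgrt and of 11090 for Fcer1g, over 6 arrays that share their processing, and are given as a description.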

How the data were processed

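RNA of 6 samples was labelled with biotin and hybridised to Affymetrix arrays, per the labels' protocols. Affymetrix Expression Console was used, per the submitters' processing notes, its version, background correction and summarisation being not given in the sources used here. Values as deposited are log2 signals per probe set, as judged from their range, and their near-equal quartiles mean that they were probably normalized between arrays. Of 41345 rows, 23521 had 1 symbol in the platform annotation. The brightest row per gene was kept, which left 22180 genes. DB2313 was compared with vehicle with limma 3.58.1 in R 4.3.3 (lmFit and eBayes, 2-sided), with p adjusted by Benjamini-Hochberg over all genes at 0.05. On simulated data for 22180 genes in this design, it recovered 55.6% of genes changed by 0.5 on the log2 scale and 95.0% at 1. Fewer genes were changed in the simulation than the 401 that passed here, and recovery after this adjustment depends on the share changed. The simulation drew the spread without regard to signal and added the full change to dim genes too. It therefore does not give the recovery for genes near the lower end of the scale. Changes as small as those of Fcgr3 and Fcgrt were not simulated. The number of arrays limits the precision.

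The genes and lists were chosen with earlier results of these data known. The text names all 10 Fc receptor genes, Spi1 and, from each list, up to 3 genes past the threshold with the largest change, or the 2 with the smallest p where none passed, plus the 3 genes most like Fcer1g and like the receptor with the smallest p. Other genes are said to be outside the rule or are markers. Of 155 listed pathway genes, 13 had no row with a single symbol and were not analysed here. Alternatives were 2 filters on dim genes, quantile normalization, median centring, an offset of 32, the replicate number as a block, a trended and robust prior, averaging the rows of a gene, testing all rows, and dropping each array in turn. Promoters came from RefSeq, build GRCm38.p6. No build is stated for the probe sets.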

Additional observations from a re-analysis of the deposited data

How the results depend on the processing

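The number of all genes past the threshold, 401, became 799 when genes dimmer than the median were removed (median filter), 830 with the offset of 32, 920 with the trended and robust prior, 190 with the replicate number as a block, and 136 to 187 with 1 array left out. Fc receptor genes past the threshold numbered 0 in each setting with an array left out, and 1 (Fcgrt) under the median filter (log2 fold change -0.397), the offset (-0.24) and the trended and robust prior (-0.397). Fcgrt, Fcgr3, Fcgr2b, Fcer1a and Fcer2a kept their sign in every setting that tested them. With 1 array left out, log2 fold changes ranged from -0.456 to -0.327 for Fcgrt, -0.346 to -0.239 for Fcgr3, -0.042 to 0.016 for Fcgr1, -0.188 to 0.116 for Fcgr4, -0.035 to 0.045 for Fcer1g, -0.0063 to 0.26 for Fcrla and -0.037 to 0.036 for Fcrlb. The sign also turned for Fcgr1 (0.0067) and Fcgr4 (0.0081) with quantile normalization and for Fcgr4 with median centring (0.00018).

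Counts of pathway genes past the threshold moved as follows. Receptors pairing with the chains went from 2 to 1 under the median filter and the replicate block, to 3 under the trended prior, and were 1 to 2 with an array left out. Tyrosine kinases went from 0 to 1 under the median filter and the trended prior. Adaptors and effectors went from 1 to 2 with the 0.25 quantile filter and quantile normalization, 4 with the median filter, offset and trended prior, 0 with the replicate block, and 0 with any array left out. Inhibitors went from 2 to 5 with the median filter and trended prior, 4 with the offset, 0 with the replicate block, and 0 to 2 with an array left out. Phagocytic cup genes went from 1 to 2 with the 0.25 quantile filter, 3 with the median filter, 4 with the offset and trended prior, and 0 with any array left out. With an array left out, Hcst ranged from -0.042 to 0.151 and Cd3d from -0.182 to 0.128.

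Whether the replicate numbers pair the samples is not known. Deviations from the group means correlated at 0.0226, 0.0781 and 0.00828 for the 3 shared numbers, and not every sample correlated best with its own number. Correlations this weak from 3 arrays per group cannot decide it. With the replicate number as a block, Fcgrt had an adjusted p of 0.176 and Fcgr3 of 0.282, and Spi1, Cd200r4, Prkcd, Ubash3a, Dok3 and Elmo1 did not pass (adjusted p from 0.0708 to 0.117). The median filter leaves out 7 of the 10 Fc receptor genes and tests fewer genes; the cause of the other shifts was not tested. Background per probe set is unknown, so the 7 genes below the median signal may hide changes.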
